A study of Mus musculus with 17 samples.

Results

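Imprinted genes are transcribed mainly from the allele inherited from one parent, because DNA methylation set in the egg or sperm differs between both alleles. Many of them act in placental and fetal growth and stay active in adult hypothalamus, the brain region that controls feeding, growth hormone release and body temperature. Ndn, Peg3, Nnat, Mest, Dlk1 and Plagl1 are known to be transcribed from the paternal allele and Cdkn1c from the maternal allele. Grb10 is transcribed from the maternal allele in most tissues and from the paternal allele in neurons. The arrays give 1 signal for both alleles together, so nothing here separates them.

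The 8 genes described are Ndn, Peg3, Nnat, Mest, Dlk1, Plagl1, Grb10 and Cdkn1c, taken by gene symbol from the platform annotation, out of 12393 genes with a probe set of their own. They have 20 probe sets, of which 15, for 7 genes, were bright enough to be tested, and 5 were not (3 of 8 for Ndn, 1 of 2 for Plagl1 and the single one for Cdkn1c). All 8 matched the RefSeq gene table by Entrez identifier. They were chosen by measured values, with earlier results in view: probe set 1425457_a_at of Grb10 and probe set 1437853_x_at of Ndn had passed the test in ob/ob against control mice while other probe sets of both genes had not. The ob/ob values of all members are therefore given as a description with no test, and the STZ values carry the p of the fit over all probe sets. The STZ comparison uses the same 6 control arrays that entered the choice, so for the members, and above all for these 2 probe sets, it is not independent of the choice. Each probe set is kept apart.

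Hypothalamus RNA came from 17 male mice labelled C57Bl/6 and 9 weeks old, with 1 Affymetrix array per hypothalamus. The 6 control mice were labelled wildtype and were injected with vehicle. The 6 mice of the STZ group were also wildtype and received 1 intraperitoneal dose of streptozotocin (200 µg per g of body weight), which kills beta cells of the pancreas. The 5 mice labelled ob/ob carry the leptin mutation of that name, which makes mice overeat and grow obese, and the labels name no injection given to them in particular. The time from injection to dissection is not given in the sources used here. Both models were set against the same 6 controls. The values are MAS5 signals on a linear scale, with array medians between 638 and 708, a 2% trimmed mean of 1500 on every array, a lowest correlation between arrays of 0.954 and 0 identical pairs of arrays. Changes are given as log2 fold changes ± SE (standard error, limma), and p-values are adjusted by Benjamini-Hochberg over the 13576 probe sets tested. The labels do not say more on how the mice were kept or processed, so each p-value reflects the scatter among these samples, part of which may be technical. In a whole tissue, fewer cells of a type and less RNA per cell cannot be told apart.

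The tissue label was checked against hypothalamic markers. Of 20 listed, 18 had a probe set and 13 were above the signal filter, among them Oxt and Avp, the neurohypophysial hormones, at geometric mean signals of 10908 and 13324, and Hcrt, the orexin precursor, at 6639. All 8 pituitary markers on the array, such as Gh and Prl, were under the filter (highest signal 306), as were 7 of 8 choroid plexus markers. Pituitary is a tissue in which Dlk1 is strongly transcribed. The 5 hypothalamic markers under the filter went down to a signal of 20. Of the markers of neighbouring brain regions on the array, 6 of 6 striatal, 6 of 9 thalamic and 4 of 7 cortical ones were above the filter. Their highest signals were 7825, 7600 and 2962. How much neighbouring tissue the samples held was not tested.

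The starts of transcription that RefSeq gives for Ndn and Grb10 are shown first, because both genes carry the changes the choice rests on and Grb10 has 2 starts beside probe sets that differ. Each line holds the 250 bases before a start on the gene's strand (GRCm38.p6), with the CpG dinucleotides, the sites of DNA methylation, in capitals. The Ndn window is chr7:62348027-62348276 (plus strand), the first Grb10 window is chr11:12037421-12037670 (minus strand) and the second is chr11:12027972-12028221 (minus strand).
Ndn: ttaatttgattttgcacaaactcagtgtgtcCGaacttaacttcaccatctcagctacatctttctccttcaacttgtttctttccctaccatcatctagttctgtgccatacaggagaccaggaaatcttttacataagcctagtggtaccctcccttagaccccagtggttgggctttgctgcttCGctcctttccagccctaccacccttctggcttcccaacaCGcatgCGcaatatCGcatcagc
Grb10 first start: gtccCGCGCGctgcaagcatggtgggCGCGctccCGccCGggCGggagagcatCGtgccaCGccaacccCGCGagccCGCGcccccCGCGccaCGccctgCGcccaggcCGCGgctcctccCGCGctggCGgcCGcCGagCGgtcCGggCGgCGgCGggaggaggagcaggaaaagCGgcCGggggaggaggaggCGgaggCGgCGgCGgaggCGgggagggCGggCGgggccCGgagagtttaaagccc
Grb10 second start: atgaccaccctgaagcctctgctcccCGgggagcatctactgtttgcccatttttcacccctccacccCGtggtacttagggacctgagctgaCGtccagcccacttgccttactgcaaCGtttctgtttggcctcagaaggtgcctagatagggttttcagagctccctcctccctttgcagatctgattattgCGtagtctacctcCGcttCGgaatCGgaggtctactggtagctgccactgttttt
The first Grb10 start had 40 CpG in these 250 bases and the second had 8, against 5 for Ndn. Over the 300 bases from 250 before to 50 after a start, the counts were 45, 9 and 11, and the median over 32851 mouse promoters was 7. A count of 45 or more was found in 1.93% of promoters, and one of 11 or more in 41.4%. All 10 starts of the 7 members in the table were above that median, with 13 CpG for Peg3, 17 for Nnat, 9 for Dlk1, 26 for Plagl1 and 8, 17 and 17 for the 3 starts of Mest. The Mest windows with 17 CpG begin at chr6:30737800 and chr6:30737803 and are nearly the same sequence. The letters GCATGCGC, or GCGCATGC on the opposite strand, part of the site of the transcription factor NRF1, stood in the 300-base windows of Ndn and Nnat and in 2.71% of all promoters. Neither the files nor the probe annotation tie a probe set to a start, so which start a Grb10 probe set reports was not tested.

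Grb10 encodes an adaptor that binds the activated insulin and IGF1 receptors and dampens their signal. Its probe set 1425457_a_at stepped down from control to STZ to ob/ob mice, while the other probe sets of the gene did not show that order. The 6 control arrays gave signals of 860, 918, 835, 815, 876 and 865. The 6 STZ arrays gave 669, 716, 758, 794, 787 and 690. The 5 ob/ob arrays gave 539, 634, 679, 539 and 614. All STZ and ob/ob arrays lay below every control, and the STZ and ob/ob arrays overlapped by 1 array. Geometric means were 861 in control, 734 in STZ and 599 in ob/ob mice. Against control, STZ stood at -0.23 ± 0.076 (SE, n = 6 and 6), which did not pass (limma, adjusted p = 0.389). Ob/ob stood at -0.52 ± 0.080 (n = 5 and 6), a value behind the choice of the gene. From STZ to ob/ob the difference was -0.29 ± 0.080, given without a test because the ob/ob arrays entered the choice.

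**Figure D1:**
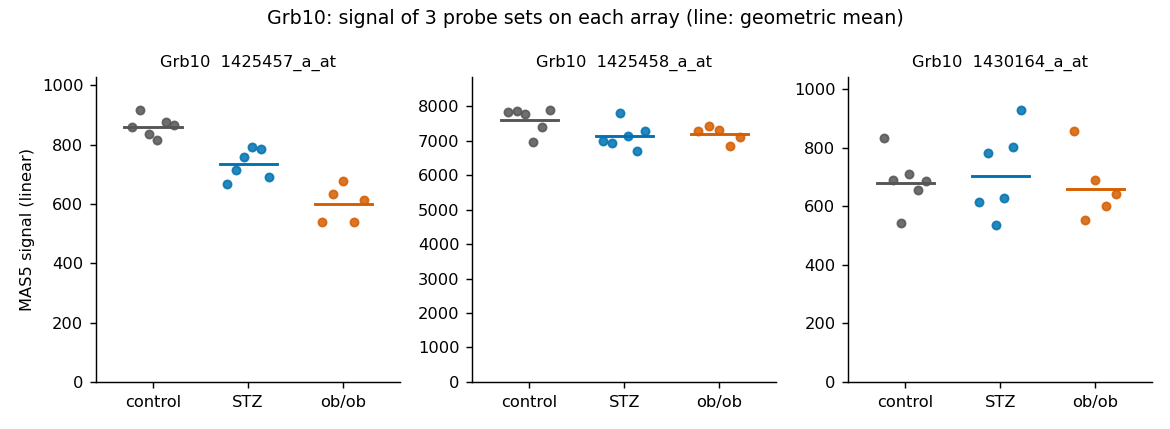
MAS5 signal (linear, from 0) of the 3 Grb10 probe sets in 6 control, 6 STZ and 5 ob/ob mice; each point is 1 array and each line a geometric mean. On 1425457_a_at every STZ and ob/ob array lies below all controls, and on the other probe sets the groups overlap.

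The brightest Grb10 probe set, 1425458_a_at, ran from 6967 to 7904 in control arrays (median 7810), from 6718 to 7818 in STZ (median 7061) and stood at 7285, 7441, 7315, 6845 and 7117 in ob/ob. The groups overlapped in both comparisons. The change was -0.094 ± 0.042 in STZ (limma, adjusted p = 0.559) and -0.082 ± 0.044 in ob/ob. In a fit that also held the marker level of adjacent brain regions as a covariate (described further on), the ob/ob value of this probe set was 0.0038 ± 0.053. That fit cannot tell the ob/ob group and the marker level apart. In mean signal 1425457_a_at and 1430164_a_at were both dim, at the 52.1st and 50.2nd percentile, against the 94.7th for 1425458_a_at. The probe set 1430164_a_at ran from 542 to 833 in control arrays (median 687), from 536 to 930 in STZ (median 705) and from 553 to 856 in ob/ob (median 641). Its changes were 0.049 ± 0.13 (adjusted p = 0.947) and -0.042 ± 0.14, with an SE above those of both other probe sets of the gene. With the covariate its ob/ob value was further from 0, at -0.22 ± 0.18.

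The probe sets of a gene were set against each other within each array, which removes what an array shares. In STZ the difference between 1425457_a_at and 1425458_a_at moved by -0.14 against control (exact permutation over 924 splits, two-sided p = 0.0541, adjusted over 16 pairs 0.577), and that between 1425457_a_at and 1430164_a_at by -0.28 (exact p = 0.108, adjusted 0.577). In ob/ob the same differences were -0.44 and -0.48, with no test. After subtraction of group means the signals of 1425457_a_at correlated with those of 1425458_a_at at r = 0.29 and with those of 1430164_a_at at r = -0.19 over 17 arrays, so array-to-array variation was largely not shared among the probe sets of this gene.

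Ndn encodes necdin, a MAGE family protein of postmitotic neurons that lies in the interval deleted in Prader-Willi syndrome. Its 5 bright probe sets, between the 99.2nd and 99.8th percentile of mean signal on these arrays, were all lower in ob/ob than in control mice and near the controls in STZ. On 1437853_x_at the controls gave 20998, 21958, 21680, 22924, 21560 and 22134. The STZ arrays gave 21119, 20335, 23905, 20902, 21704 and 19754. The ob/ob arrays gave 19849, 15119, 14632, 14378 and 18448. All ob/ob arrays lay below the lowest control, and 1 lay inside the STZ range. The change was -0.42 ± 0.071 in ob/ob (n = 5 and 6), a value behind the choice, and -0.042 ± 0.068 in STZ (limma, adjusted p = 0.906; 2 SE either side reach -0.18 and 0.094).

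**Figure D2:**
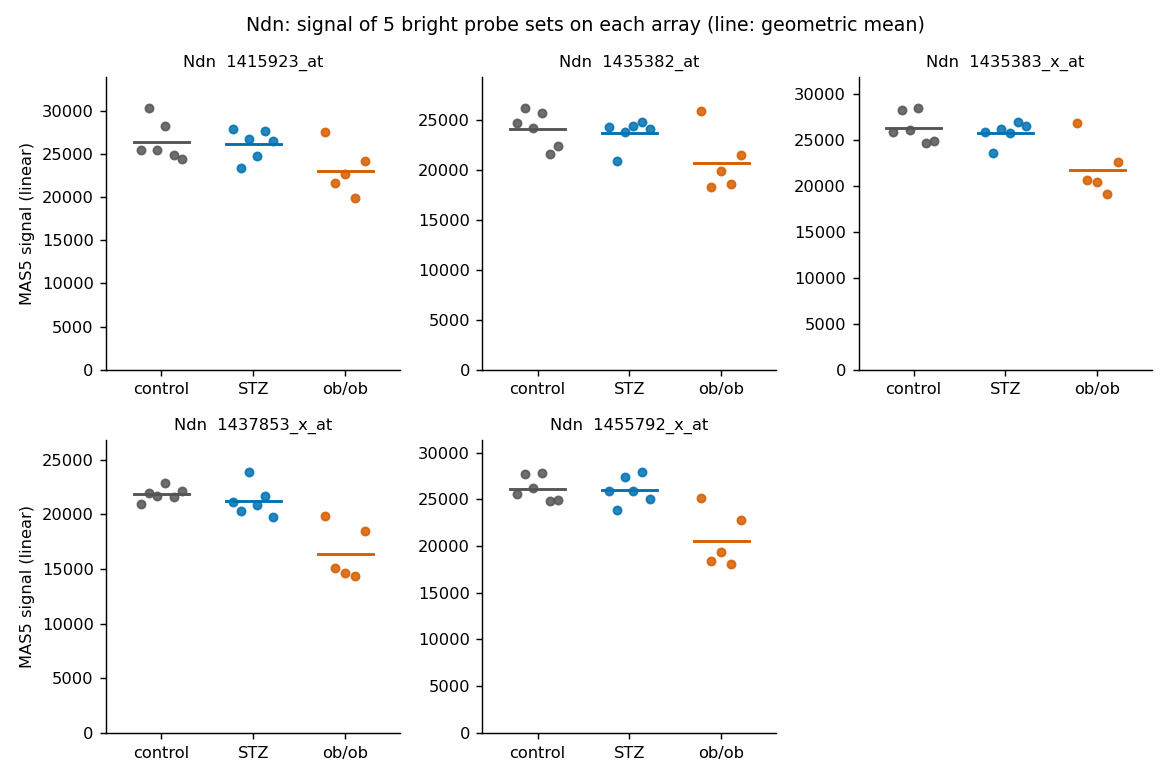
MAS5 signal (linear, from 0) of the 5 bright Ndn probe sets in 6 control, 6 STZ and 5 ob/ob mice; each point is 1 array and each line a geometric mean. In ob/ob 4 arrays are low and 1 lies within the controls on every probe set but 1437853_x_at.

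The other 4 bright Ndn probe sets were lower in ob/ob by smaller amounts. On 1455792_x_at the ob/ob arrays gave 25093, 18407, 19334, 18063 and 22831 against controls from 24808 to 27775 (median 25905), a change of -0.35 ± 0.071. On 1435383_x_at they gave 26786, 20577, 20408, 19114 and 22543 against 24602 to 28384 (median 25926), a change of -0.27 ± 0.067. On all 4 of these probe sets, ob/ob array 1 lay inside the control range and the other 4 lay below every control. On 1435382_at the ob/ob arrays gave 25877, 18279, 19888, 18538 and 21487 (-0.22 ± 0.075), and on 1415923_at they gave 27609, 21714, 22739, 19907 and 24195 (-0.19 ± 0.073). The changes thus ran from -0.19 to -0.42 among probe sets of 1 gene. In STZ the same 4 ran from -0.029 to -0.0093, with 0 passing (limma, adjusted p from 0.931 to 0.986; 0 at an unadjusted p under 0.05).

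Without ob/ob array 1 the probe sets 1435383_x_at and 1455792_x_at stood at -0.35 and -0.42 in ob/ob. Without ob/ob array 2 or 4 the value of 1437853_x_at was -0.39 or -0.37. The 5 probe sets moved together from array to array after group means were subtracted (r from 0.68 to 0.95 over 17 arrays), and 1437853_x_at was part of the 3 lowest of these 10 correlations. The differences between pairs of these probe sets in STZ were between -0.032 and 0.028 (exact permutation, adjusted p from 0.805 to 0.929). In ob/ob the widest was 0.23, between 1415923_at and 1437853_x_at, with no test. Probe sets ending in _x_at hold probes that can bind other transcripts, and signals this high lie in the upper part of the deposited range, whose highest value was 48577. Their part in the spread among Ndn probe sets was not tested.

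A further 3 probe sets annotated to Ndn were under the filter, with no test. Their geometric means in control, STZ and ob/ob mice were 339, 403 and 411 on 1438939_x_at, 158, 183 and 171 on 1438978_x_at, and 233, 248 and 302 on 1456575_at. All 3 had higher means in ob/ob than in control, by 0.28 ± 0.29, 0.11 ± 0.23 and 0.38 ± 0.28, with overlapping groups.

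Peg3 and Plagl1 encode zinc finger proteins. Peg3 is linked to maternal care and feeding in mice, and Plagl1, also called Zac1, regulates a set of other imprinted genes. Peg3 was represented by 3 bright probe sets that gave 3 different values in ob/ob mice. On 1417356_at the ob/ob arrays gave 7108, 7767, 7742, 7060 and 7676 and the controls 8518, 8367, 8465, 8188, 8770 and 8900. All ob/ob arrays lay below all controls, with a change of -0.19 ± 0.057. The STZ arrays ran from 6785 to 9053 (median 7724), and 4 of 6 lay below every control, at -0.12 ± 0.054 (limma, adjusted p = 0.574). The brightest, 1433924_at, stood at -0.11 ± 0.045 in ob/ob and -0.043 ± 0.043 in STZ (adjusted p = 0.838), and 1417355_at at -0.024 ± 0.053 and 0.029 ± 0.050 (adjusted p = 0.911). On both of these the groups overlapped. The Peg3 probe sets shared little array-to-array variation (r = 0.071, 0.20 and 0.33 over 17 arrays). The difference between 1417355_at and 1417356_at moved by 0.15 in STZ (exact permutation, adjusted p = 0.577), and without STZ array 3 by 0.20 (adjusted p = 0.0346).

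Plagl1 had the steadiest signal of the members in control mice. On 1426208_x_at the 6 controls ran from 9741 to 10129 (median 9995), the STZ arrays from 8919 to 10813 (median 9490) and the ob/ob arrays gave 9682, 9655, 10771, 10379 and 9618. The changes were -0.051 ± 0.044 in STZ (limma, adjusted p = 0.81) and 0.0048 ± 0.047 in ob/ob, and both models scattered more widely around the controls than the controls did among themselves. The other Plagl1 probe set, 1450533_a_at, was under the filter, with geometric means of 350, 328 and 319 in control, STZ and ob/ob mice.

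Nnat encodes neuronatin, a small membrane protein of the endoplasmic reticulum that in beta cells assists the processing of preproinsulin. Its ob/ob arrays gave 15439, 16190, 16961, 15058 and 15807, and its controls gave 17670, 17460, 18677, 17812, 17484 and 18479. The groups did not overlap, with a change of -0.17 ± 0.048. The STZ arrays gave 16890, 15686, 19076, 17895, 17274 and 15515, of which 4 lay below every control and 1 above, at -0.075 ± 0.046 (limma, adjusted p = 0.696). With the adjacent-region covariate the ob/ob value of Nnat was -0.079 ± 0.058.

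Dlk1 encodes a membrane protein related to Notch ligands that holds back the maturation of fat cells and is found in hypothalamic and pituitary endocrine cells. Its ob/ob arrays gave 3905, 4520, 4470, 3619 and 4659, against controls of 4309, 4112, 5264, 4668, 4543 and 5556. In ob/ob 2 arrays lay below every control and the others overlapped, at -0.16 ± 0.075, and with the neighbouring-region covariate the value was -0.014 ± 0.089. The STZ arrays ran from 4449 to 4855 (median 4710), inside the control range, at -0.0095 ± 0.071 (adjusted p = 0.986, limma).

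Mest encodes a membrane protein of the hydrolase fold that marks expanding fat tissue, and Cdkn1c an inhibitor of cyclin-dependent kinases that stops cell division. Mest ran from 946 to 1179 in control arrays (median 1116), from 892 to 1085 in STZ (median 1026) and gave 1109, 1044, 1051, 1007 and 791 in ob/ob. The groups overlapped, at -0.11 ± 0.086 in STZ (limma, adjusted p = 0.773) and -0.12 ± 0.090 in ob/ob, and without ob/ob array 5 the latter was -0.035. Cdkn1c was under the filter, with 220, 293, 363, 253, 212 and 424 in control arrays, 165 to 428 in STZ (median 311) and 281, 324, 347, 558 and 365 in ob/ob mice. Its ob/ob mean was above the control mean by 0.36 ± 0.24 with overlapping groups, and no test was made.

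**Figure D3:**
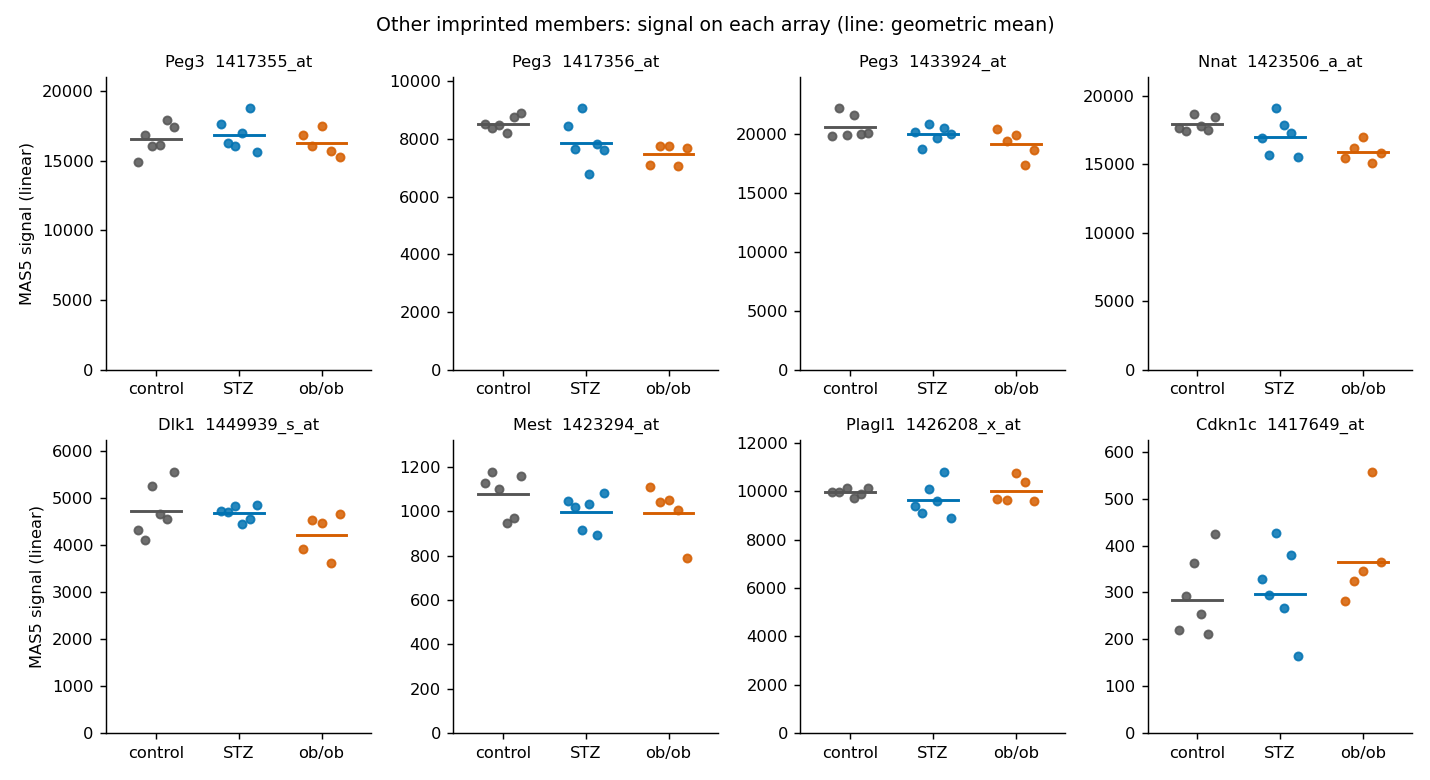
MAS5 signal (linear, from 0) of the tested probe sets of Peg3, Nnat, Dlk1, Mest and Plagl1 and of the dim Cdkn1c probe set; each point is 1 array and each line a geometric mean. Ob/ob points lie below all controls on Peg3 1417356_at and on Nnat.

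Counted together in STZ, 0 of the 15 member probe sets passed (limma, against 7 of 13576, 0.0516%, over all probe sets, with 0.00737% lower). At an unadjusted p under 0.05 there were 3, all lower, beside 8.24% of all probe sets, 4.38% lower and 3.87% higher. These were 2 of Grb10 and 1 of Peg3. For 1 of 15, Grb10 1425457_a_at, every STZ array lay below every control, beside 0.302% of all probe sets; its control arrays entered the choice, so nothing is read from that. The median change of the 15 was -0.042 and 13 were below 0, against a median of 0.0006 and 49.7% below 0 over all. The control arrays entered the choice of the members, so nothing is read from any of these STZ counts. In ob/ob 2 of 15 passed, both lower (17 of 13576 or 0.125% over all, and 0.081% lower). At an unadjusted p under 0.05 there were 10 of 15, all lower, beside 11.9% of all, 6.12% lower and 5.75% higher. This contrast chose the genes, so nothing is read from these counts. For 4 of 15 every ob/ob array lay below every control, beside 1.07% of all, on Grb10 1425457_a_at, Ndn 1437853_x_at, Peg3 1417356_at and Nnat. The median was -0.17 and 14 were below 0, against -0.00051 and 50.2%. In ob/ob against STZ, where the ob/ob arrays entered the choice and nothing is read from the counts, the 15 had a median of -0.10, 13 were below 0 beside 50.1% of all, and 0 passed (0.0368% over all; limma, 6 at an unadjusted p under 0.05, all lower, beside 3.93%). In 0 of 15 the ob/ob and STZ groups lay apart, beside 0.273% of all that were lower. Probe sets of 1 gene share their transcript and all share the arrays, so these counts are not of independent items.

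**Figure D4:**
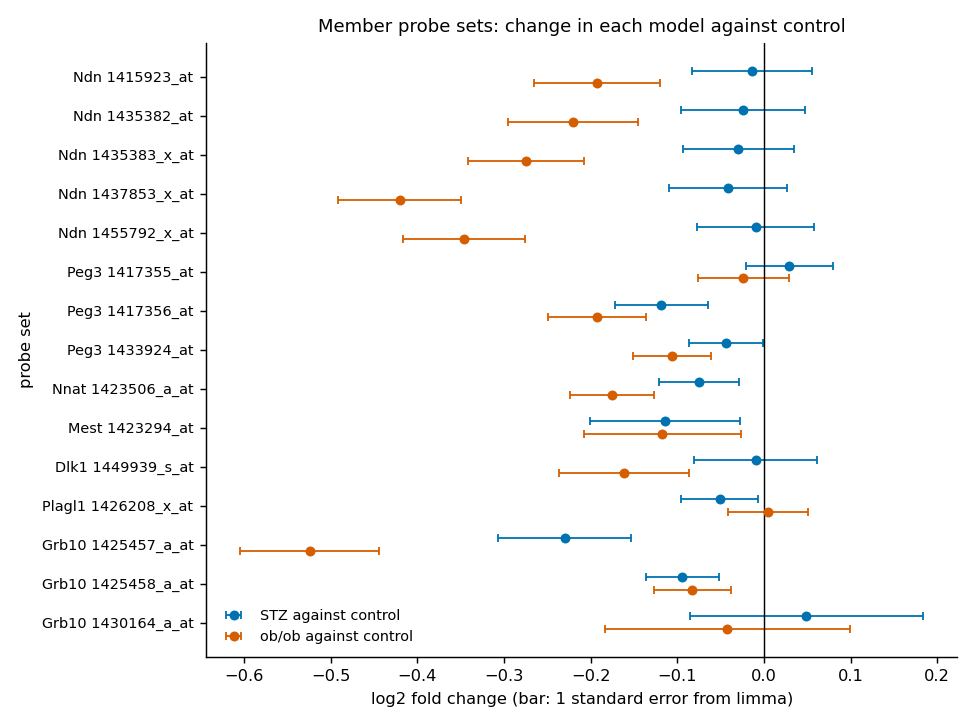
Log2 fold change against control (horizontal axis) for the 15 tested member probe sets in STZ and ob/ob mice; bars are 1 standard error from limma. Ob/ob values reach -0.52 for Grb10 1425457_a_at and -0.42 for Ndn 1437853_x_at, and STZ values lie between -0.23 and 0.049.

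Imprinted genes lie in clusters, and members can be set beside their imprinted neighbours, which were taken by position in the RefSeq gene order, whatever their values. Magel2, another MAGE gene, is the next coding gene to Ndn and was higher rather than lower. It ran from 1923 to 3112 in control arrays (median 2284), from 2540 to 3046 in STZ (median 2796) and from 2188 to 3202 in ob/ob (median 2917), with overlapping groups. Its values were 0.25 ± 0.099 in STZ and 0.23 ± 0.10 in ob/ob (limma, adjusted p = 0.496 and 0.386), so neither passed. Ndn and Magel2 thus had values of opposite sign in ob/ob, a difference that was not tested.

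Usp29 beside Peg3 stood at -0.0075 ± 0.057 in STZ and -0.0011 ± 0.059 in ob/ob, Blcap beside Nnat at -0.027 ± 0.038 and -0.059 ± 0.039, and Copg2 beside Mest at 0.068 ± 0.10 and -0.011 ± 0.10. Ddc, the aromatic amino acid decarboxylase beside Grb10, stood at 0.092 ± 0.11 and -0.036 ± 0.12. For the noncoding Meg3 beside Dlk1, transcribed from the maternal allele, 5 probe sets ran from -0.083 to 0.043 in ob/ob and from -0.09 to 0.067 in STZ. Rian, a noncoding RNA further along the same cluster, had 3 probe sets from -0.21 to 0.20 in ob/ob. Igf2, the growth factor of the cluster near Cdkn1c, stood at -0.29 ± 0.26 in STZ and -0.0052 ± 0.28 in ob/ob, with a wide spread. Nearer to Cdkn1c, Tssc4 stood at -0.16 ± 0.087 and 0.018 ± 0.091, Cd81 at 0.051 ± 0.041 and -0.0023 ± 0.043, and Th, the tyrosine hydroxylase of dopamine neurons, at 0.17 ± 0.18 and -0.0027 ± 0.19. None of these passed in either comparison with control (limma, adjusted p at least 0.598).

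**Figure D5:**
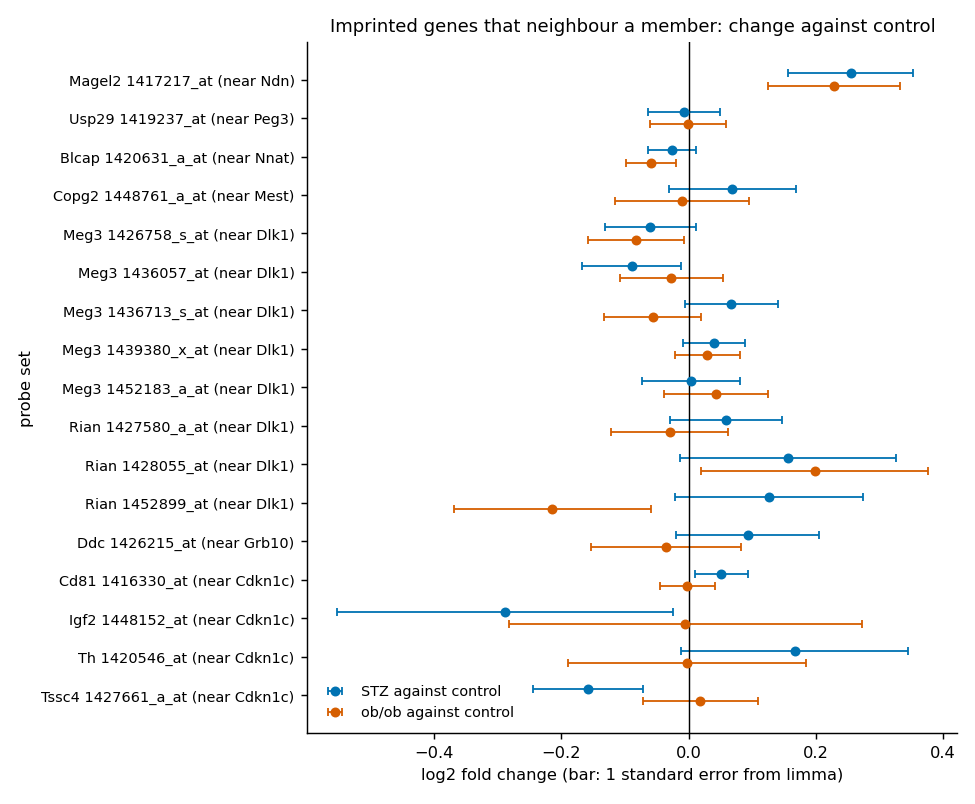
Log2 fold change against control (horizontal axis) for the tested probe sets of imprinted genes that neighbour a member, in STZ and ob/ob mice; bars are 1 standard error from limma. Magel2 is above 0 in both models, and none of these probe sets passed the test.

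Over a list of 68 other imprinted genes, 48 were on the array and 32, with 52 probe sets, were tested. In STZ 0 rose and 0 fell (limma, beside 0.0516% of all probe sets passing). At an unadjusted p under 0.05 there were 5, 1 higher and 4 lower, beside 8.24% of all. In ob/ob 0 rose and 0 fell (limma, beside 0.125% of all passing). At an unadjusted p under 0.05 there were 3, 1 higher and 2 lower, beside 11.9% of all. The medians were 0.0057 in STZ and -0.022 in ob/ob, with 25 and 37 of 52 below 0 (48.1% and 71.2%). Over all probe sets 49.7% and 50.2% were below 0. The genes with the smallest p in STZ, none passing, were Asb4, Magel2 and Casd1, and in ob/ob Asb4, Magel2 and Gab1. Asb4 encodes a subunit of a ubiquitin ligase found in hypothalamic neurons. On 1423422_at it ran from 603 to 1096 in control arrays (median 810), from 558 to 705 in STZ (median 633) and from 481 to 640 in ob/ob (median 554). Ob/ob stood at -0.57 ± 0.12 (adjusted p = 0.0687) and STZ at -0.36 ± 0.12 (adjusted p = 0.391), and its other probe set gave -0.56 and -0.34 (adjusted p = 0.0863 and 0.459). With the neighbouring-region covariate the ob/ob value of 1423422_at was -0.35 (adjusted p = 0.624). Casd1, a sialic acid O-acetyltransferase, stood at -0.18 ± 0.086 in STZ (adjusted p = 0.595) on 1427463_at and at 0.0077 ± 0.046 on its brighter probe set. Gab1, a docking protein of growth factor receptors, stood at -0.14 ± 0.073 in ob/ob (adjusted p = 0.48) on 1417694_at. Its other probe sets had ob/ob and control medians of 1683 and 1801 on 1417693_a_at and of 1077 and 1029 on 1448814_at. In ob/ob against STZ the smallest p fell to Rian at -0.34, Tssc4 at 0.18 and Igf2r, the IGF2 clearance receptor, at 0.15 (adjusted p = 1 for each after rounding), with 0 passing (1 at an unadjusted p under 0.05, beside 3.93% of all probe sets). The Igf2r value is that of 1424111_at. The other Igf2r probe set, 1424112_at, went the other way, with medians of 1150 in ob/ob and 1272 in STZ. Of the genes known to vary together with Plagl1 as an imprinted network, 7 of 9 were tested, with 14 probe sets. Of these, 0 rose and 0 fell in either model (limma). At an unadjusted p under 0.05 there were 0, beside 8.24% of all probe sets in STZ and 11.9% in ob/ob. Their medians were -0.051 in STZ and -0.041 in ob/ob.

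Partners and relatives of the member proteins were read in the same way: receptors and substrates that Grb10 works with, its relatives Grb7 and Grb14, other MAGE proteins, the relatives of Cdkn1c and the Notch genes. Of 24 genes 20 were tested, with 27 probe sets, and 0 rose and 0 fell in STZ or ob/ob (limma; 3 and 4 at an unadjusted p under 0.05, beside 8.24% and 11.9% of all probe sets). In STZ the smallest p fell to Magel2, Notch3 and Nedd4. Notch3, a receptor of vascular mural cells, stood at -0.37 ± 0.17 (adjusted p = 0.576) on 1421964_at and at -0.04 on its brighter probe set. Nedd4, the ubiquitin ligase that binds Grb10, stood at -0.095 ± 0.044 (adjusted p = 0.594) on 1451109_a_at, the 1 probe set of this list whose ob/ob arrays all lay below the controls, beside 1.07% of all probe sets. On its brightest probe set, 1450431_a_at, the groups overlapped, with medians of 8896 in control, 8980 in STZ and 8832 in ob/ob. In ob/ob the smallest p fell to Cdkn1b, Nedd4 and Magel2. Cdkn1b, also an inhibitor of cyclin-dependent kinases, stood at 0.31 ± 0.11 (adjusted p = 0.264), and Nedd4 at -0.15 ± 0.057 (adjusted p = 0.279) on 1421955_a_at. In ob/ob against STZ it fell to Notch1 at -0.32, Irs2, a substrate of the insulin receptor, at -0.51, and Cdkn1b at 0.24, with 0 passing (3 at an unadjusted p under 0.05, beside 3.93% of all probe sets).

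Markers of tissue composition had different mean levels in ob/ob and control arrays, and no list passed after adjustment. The mean log2 level of 16 markers of neighbouring striatum, cortex and thalamus was 11.07 in ob/ob (10.994 to 11.13) against 10.836 in control (10.609 to 10.992), a difference of 0.23 (exact permutation over 462 splits, two-sided p = 0.00866, adjusted over 16 tests 0.0693). The 13 hypothalamic markers were lower in ob/ob by 0.22, with 11.154 to 11.401 against 11.414 to 11.67 (exact p = 0.00433, adjusted 0.0693). Neither list overlapped between ob/ob and control mice. The latter list holds peptide genes, such as Pomc, Cartpt, Npy and Avp, and other genes, such as Sim1 and Baiap3. Over all arrays, which pool the controls with both models, the geometric means of Npy and Avp lay above those of the controls alone. That of Sst was nearly the same (6726 against 6721). Those of the other markers in the list, Pomc and Cartpt among them, lay below. These pooled means do not say which markers were higher or lower in ob/ob mice. Peptide genes of the hypothalamus respond to leptin, and the part of leptin in the list difference was not tested. In STZ the shifts were 0.14 and -0.11 (exact permutation, adjusted p = 0.237 for both). Neuron, astrocyte, oligodendrocyte, microglia, vascular and leptomeningeal lists differed by between -0.15 and 0.14 in ob/ob and between -0.068 and 0.044 in STZ (adjusted p at least 0.237).

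With the neighbouring-region level as a covariate, the ob/ob values of members moved by different amounts, and the part of the markers in the results was not tested further. That level did not overlap between ob/ob and control arrays, so this fit cannot tell the group and the level apart. Grb10 1425457_a_at stood at -0.46 ± 0.11 in place of -0.52, Ndn 1437853_x_at at -0.40 ± 0.097 in place of -0.42 and Ndn 1415923_at at -0.21 ± 0.10 in place of -0.19. Those of Nnat, Dlk1 and Peg3 1417356_at were -0.079, -0.014 and -0.10 in place of -0.17, -0.16 and -0.19. In STZ Grb10 1425457_a_at stood at -0.19 ± 0.088 (limma, adjusted p = 0.672). Within ob/ob the array with the highest Ndn, array 1, had a neighbouring-region level of 11.13 and a hypothalamic level of 11.317, and array 4, with the lowest Ndn on 4 of the 5 bright probe sets, had 11.122 and 11.154.

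For each member the genes whose brightest probe set varied most like it from array to array, with group means subtracted, were found among 7989 genes over 17 arrays. Ndn (1415923_at) varied most like Peg3 (1433924_at) at r = 0.83 and next like Prkar1a, a regulatory subunit of protein kinase A, at 0.81. The likeness to Peg3 differed by probe set: the other bright Ndn probe sets correlated with Peg3 1433924_at at 0.64, 0.72, 0.46 and 0.61, and Ndn 1415923_at with the other Peg3 probe sets at 0.18 and 0.07. Ndn was not among the 2 genes nearest to Peg3, but its r was almost that of the second, Mbp (0.8340 against 0.8341). Under quantile normalization, an alternative added after the data were seen, the r of Ndn with Peg3 was 0.74. Peg3 was nearest to Ndrg4 at 0.86 and Mbp at 0.83, Nnat to Stx7 at 0.84 and Gap43 at 0.82, and Dlk1 to Chrna6 at 0.79 and Card10 at 0.78. Mest was nearest to Lmnb1 at 0.86 and Rrp1b at 0.83, Plagl1 to Mfsd5 at 0.83 and Cnbp at 0.81, and Grb10 (1425458_a_at) to Tacr3, the neurokinin B receptor, at 0.82 and Sytl4 at 0.79. These are descriptions: all values share the arrays and their scaling, and the highest of 7989 correlations over 17 arrays was taken for each member.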

How the data were processed

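The deposited intensity values, per the submitters' processing notes, are MAS5 signals that the authors gave for 22690 probe sets on 17 arrays. The MAS5 version, scaling target and detection calls are not given in the sources used here. All arrays had the same trimmed mean, so they were scaled before deposit. Signals were taken as log2 after the 64 control probe sets were left out. A probe set was tested where its mean log2 signal reached the 40th percentile (a geometric mean of 435). One limma 3.58.1 model of 3 group means (lmFit, eBayes with a trend, R 4.3.3) gave all contrasts. Of the probe sets, 20380 had 1 gene symbol, 691 several and 1555 none; only the first were named.

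Marker levels and pairs of probe sets were compared by exact permutation over arrays, two-sided. The fit was tested on simulated data. The number of arrays limits the precision. Members, gene lists and tests were chosen with earlier results of these data known. Members are named whatever their values; of the lists, genes that passed or otherwise the 3 with the smallest p per contrast, plus imprinted neighbours, added after their values were available. Alternatives covered the filter, a pseudocount of 100, quantile normalization, the trend, the arrays in the fit, the replicate number, a marker covariate and each array left out.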

Additional observations from a re-analysis of the deposited data

Results flagged for a closer look

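In 3 of 45 groups of arrays checked (15 member probe sets in 3 groups), 1 array lay far from the others relative to the group's range, where chance flags about 1 in 20 groups. Ndn was low on STZ array 2, at 20825.6 on 1435382_at (the others ran from 23803 to 24772) and at 23539.2 on 1435383_x_at (25739 to 26932). Both are the same array on probe sets that vary together (r = 0.95 over 17 arrays). Mest was low on ob/ob array 5, at 790.9 (1007 to 1109).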

How the results depend on the processing

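The number of probe sets that passed over the whole array was 7 in STZ, 17 in ob/ob and 5 in ob/ob against STZ. With each array left out it ran from 0 to 18, from 8 to 43 and from 1 to 9. It was 0 in STZ without STZ 4 or STZ 5 (limma; 934 and 875 at an unadjusted p under 0.05). With the marker covariate it was 0 in STZ, 0 in ob/ob and 1 in ob/ob against STZ (limma; 985, 1018 and 490 at an unadjusted p under 0.05). In ob/ob it was 29 with quantile normalization and 6 with only the groups compared. In ob/ob against STZ it was 1 without a filter, 3 with a filter at the 60th percentile, 1 with only the groups compared and 1 with the replicate block. With that block it was 5 in STZ and 19 in ob/ob. Same-numbered arrays of different groups had a median r of 0.023 (over 0.1 in 1 of 16 pairs), beside 0.0014 for different-numbered arrays (over 0.1 in 14 of 80). No pairing by number was seen in this, and a weak pairing or a batch that the numbers do not follow would be missed by it. Pairs of probe sets passing in STZ were 0 (0 at an unadjusted p under 0.05), and from 0 to 1 with an array left out, the 1 being the Peg3 pair without STZ 3. Marker lists passing were 0 (3 of 16 at an unadjusted p under 0.05), and from 0 to 3 with an array left out: without control 4 the hypothalamic, neighbouring-region and oligodendrocyte lists passed in ob/ob (adjusted p = 0.0423). Of 298 values of members under the alternatives in STZ, 0 passed. Of the calls in ob/ob that chose the genes, that of Grb10 1425457_a_at was lost with the covariate, and that of Ndn 1437853_x_at with the covariate, with only the groups compared, and without ob/ob 2 or ob/ob 4; the fits that kept them reuse the arrays of the choice and are no support. Ndn 1435383_x_at and 1455792_x_at crossed the threshold without ob/ob 1, in ob/ob against control and against STZ, and 1437853_x_at did so against STZ without ob/ob 1 or ob/ob 5. On 1435383_x_at and 1455792_x_at, ob/ob 1 is the array that lay inside the control range. These crossings also reuse the arrays of the choice and are no support. Values under the 40th percentile are the least certain.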
